A study of Mus musculus with 6 samples.

Results

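Long m6A stretches are places where enrichment for N6-methyladenosine (m6A) ran without a break over 600 bp or more of the genome. They were chosen by length alone: listed peaks on chromosomes 1 to 19 that touched end to end were joined, and joined stretches of at least 600 bp were kept. This gave 586 long stretches out of 18943 stretches on these chromosomes (3.09%), against 18357 shorter ones. The whole list, with X, the mitochondrial chromosome and unplaced contigs, held 19404 stretches.

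The series profiled m6A in midbrain and striatum of adult mice with a global Fto knockout on a C57BL/6 background. All 6 libraries carry that genotype and came from RNA depleted of ribosomal RNA: 3 MeRIP libraries, immunoprecipitated with an m6A antibody, and 3 input libraries without immunoprecipitation. The title places the work in the question of how Fto affects the dopaminergic midbrain circuitry. The tissue mixes the cell types of both regions, and how many animals went into a library is not named in the sources used here. The deposited values are 1 list of regions for all 6 libraries, with no height, strand or value per library, so no value below has a replicate error and no test over samples was possible. Animals with functional Fto were not analysed here, and nothing below measures an effect of the knockout. Read depth is unknown, and the part of depth and transcript level in where a stretch begins and ends was not tested.

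m6A is the most common internal modification of messenger RNA. It is written by a complex around Mettl3 and Mettl14 at short sequence motifs, removed by the demethylases Fto and Alkbh5, and read by YTH-domain proteins that affect the stability and translation of the transcript. In brain transcripts it is known to be dense in last exons around the stop codon and in unusually long internal exons, and sparse in the short exons that make up most coding sequence. In MeRIP an antibody pulls down RNA fragments that are longer than the methylated base, so sites closer together than a fragment merge into 1 enriched region. A long stretch can therefore hold several methylated bases, and its length cannot be read as a number of sites.

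Genes were not assigned to the stretches. The coordinates are on the mm9 build, the gene tables used here are on GRCm38.p6, and no position was carried from one to the other. For the same reason the exon type, the strand and the sequence of the stretches, the Fto locus and the marker genes of midbrain, striatum and glia were not examined. Stretches are named by their mm9 coordinates, 1-based.

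Long stretches carried a larger share of the enriched sequence than of the stretch number. They spanned 458 kb of the 4408 kb under stretches on chromosomes 1 to 19 (10.4%). Their median length was 725 bp, with an interquartile range of 650 to 850 bp and a mean of 781.5 bp ± 204.1 (SD over stretches). Shorter stretches had a median of 175 bp and ran from 100 to 575 bp. Lengths chose the members, so these values describe them and test nothing. The list divides stretches into rows of at most 200 bp, and each of the 586 long stretches had as many rows as its length requires at that limit. Long stretches took up 2564 of 29299 rows (8.75%). Of them, 68 were written as 3 rows, 346 as 4, 102 as 5 and 70 as 6 or more.

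Beyond 150 bp the number of stretches fell with length as a trend, with small rises between some neighbouring lengths, such as from 65 stretches of 625 bp to 71 of 650 bp. At the edge of the rule, 109 stretches were 575 bp long and 68 were 600 bp long. The fall became less steep in the tail. Of 9613 stretches of 200 bp or more, 22.3% reached 400 bp. Of 2147 stretches of 400 bp or more, 27.3% reached 600 bp, and of the 586 long stretches 33.8% reached 800 bp. Of the 198 stretches of 800 bp or more, 39.4% reached 1000 bp, and of the 78 that did, 37.2% reached 1200 bp. By class, 388 long stretches measured 600 to 775 bp, 120 measured 800 to 975 bp, 71 measured 1000 to 1475 bp and 7 measured 1500 bp or more. The shortest of these classes held 260.4 kb, more than the other 3 together, and the 7 longest stretches held 12.2 kb.

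**Figure D1:**
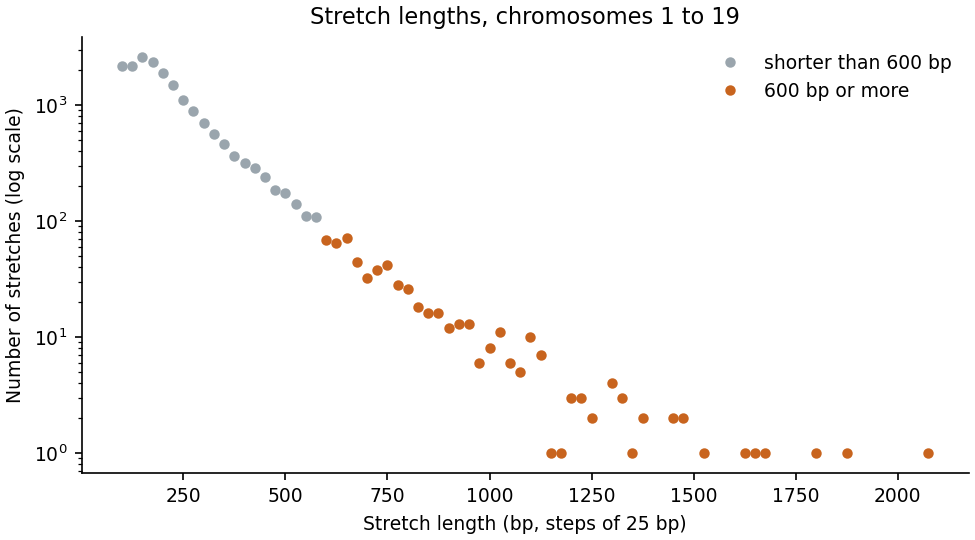
Number of stretches (log scale) at each length in bp, in steps of 25 bp, on chromosomes 1 to 19. Grey points are shorter stretches and orange points the 586 long ones; the counts pass from 109 at 575 bp to 68 at 600 bp within a falling trend that has small rises.

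The 20 longest stretches lay on 11 chromosomes and ran from 1300 to 2075 bp. Chromosomes 7 and 2 each held 5 of them. The longest, of 2075 bp, was at chr7:51716376-51718450. It ended 50 bp before a stretch of 175 bp and had no other stretch for 18575 bp on its opposite side. Chromosome 7 also held stretches of 1675 bp (chr7:17395526-17397200), 1450 bp (chr7:17531501-17532950), 1375 bp (chr7:52261651-52263025) and 1325 bp (chr7:4981876-4983200). The 5 stretches of chromosome 7 thus lay at separate places and not in 1 block.

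On chromosome 2, 3 of the 20 longest lay in the same group of stretches. They measured 1300 bp (chr2:121125876-121127175), 1525 bp (chr2:121129626-121131150) and 1875 bp (chr2:121131201-121133075). The last pair was only 50 bp apart. The other 2 on that chromosome, of 1800 bp (chr2:131003601-131005400) and 1350 bp (chr2:28307601-28308950), lay elsewhere. The stretch of 1800 bp had no other stretch within 17600 bp, so great length also occurred without neighbours.

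Chromosome 10 held a stretch of 1650 bp (chr10:79774351-79776000) and one of 1625 bp (chr10:79593401-79595025). Stretches of 1475 bp were found at chr12:109153351-109154825 and at chr19:5081226-5082700. The remaining 6 of the 20 were spread over as many chromosomes. They measured 1450 bp at chr17:5341701-5343150, 1375 bp at chr11:5616426-5617800, 1325 bp at chr1:176431951-176433275 and chr15:80709951-80711275, and 1300 bp at chr4:124335476-124336775 and chr5:24096926-24098225. Of the 20, 16 had another stretch within 1 kb, 17 within 5 kb and 6 another long stretch within 5 kb. Over all long stretches these shares were 66.6%, 74.6% and 12.3%. Over stretches of any length, 54.3% had another stretch within 1 kb and 66.5% within 5 kb. Among the 20, the 3 without a neighbour within 5 kb were the stretch of 1800 bp on chromosome 2 and those on chromosomes 17 and 4. The last was 145225 bp from the nearest stretch.

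Long stretches had company more often than shorter ones. Another stretch lay within 1 kb of 390 of the 586 long stretches (66.6%, exact binomial 95% interval 62.6 to 70.4), against 54.3% of stretches of any length. Among shorter stretches the share was 53.9% (53.1 to 54.6), which is 12.7 percentage points lower (95% interval of the difference 8.71 to 16.5). Within 5 kb, 437 long stretches (74.6%, 70.8 to 78.1) had a neighbour, against 66.5% of stretches of any length. The shorter stretches had 66.3%, a difference of 8.32 points (4.58 to 11.7). Among the shorter ones, those of 400 to 575 bp had 72.6% (70.3 to 74.8), close to the share of the long stretches. Distances were measured along the genome between the nearest ends, and introns and gene borders within them were not examined. These intervals cover counting error only, and they are too narrow because neighbouring stretches count each other. Neighbours come from the same list as the lengths that chose the members, so the values are a description without a test.

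The difference within 1 kb had the same sign on 18 of 19 chromosomes, with a median of 13.9 points. Chromosome 4 was the exception, at -1.60 points, and chromosome 14 had the widest difference, 34.5 points, from only 11 long stretches. Within 5 kb the long stretches had the higher share on 16 of 19 chromosomes. The exceptions were chromosomes 2 (-0.24 points), 15 (-3.18) and 18 (-8.62, from 14 long stretches). Weighted by the number of long stretches, the mean difference over chromosomes was 12.6 points within 1 kb and 8.20 points within 5 kb, close to the pooled values. The size of the difference depended on how gaps were treated. Within 1 kb it was 6.73 points with distances between midpoints, to which a stretch's own length adds, and 6.96 points with rows up to 100 bp apart joined. Joining in this way left 5.29 points within 5 kb. Counting only neighbours more than 100 bp away, a setting chosen after seeing the data, the difference within 1 kb was 11.0 points. Against stretches of 200 bp or less it was 15.6 points.

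The share with a neighbour rose with length well before 600 bp. Within 1 kb it was 50.9% for stretches of 200 bp or less, 57.8% for 225 to 375 bp, 61.0% for 400 to 575 bp and 66.0% for 600 to 775 bp. It was 65.8% for 800 to 975 bp and 69.0% for 1000 to 1475 bp, where the intervals of the long classes overlapped each other. Of the 7 stretches of 1500 bp or more, 6 had a neighbour within 1 kb. Just inside the rule, 46 of 68 stretches of 600 bp (67.6%) had such a neighbour, and just outside it 69 of 109 stretches of 575 bp (63.3%). Within 5 kb the share was 63.6% for stretches of 200 bp or less and 69.8% for 225 to 375 bp. It was 72.6% (70.3 to 74.8) for 400 to 575 bp and 73.5% (68.8 to 77.8) for 600 to 775 bp. At 575 bp and 600 bp the shares within 5 kb were 74.3% and 75%.

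**Figure D2:**
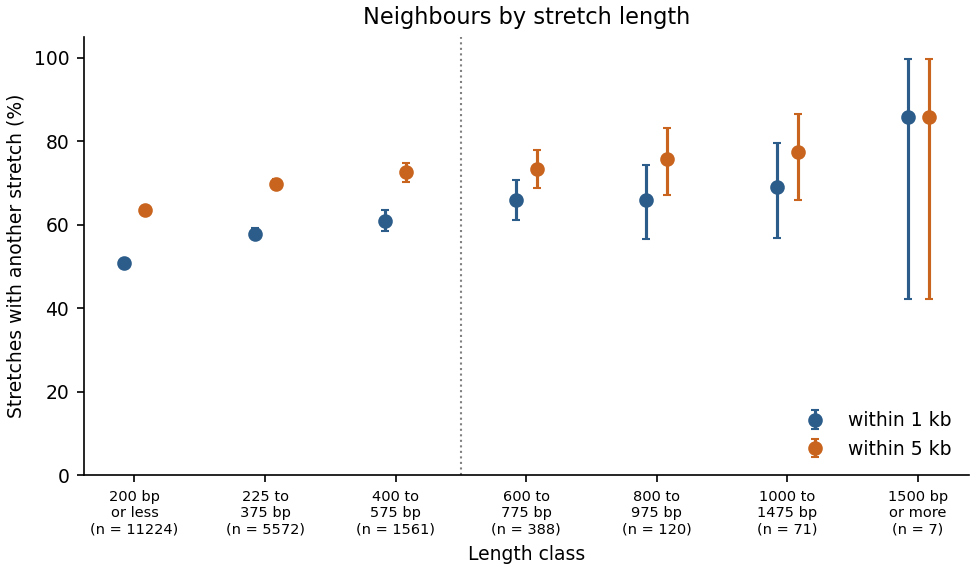
Percentage of stretches with another stretch within 1 kb (blue) or 5 kb (orange), by length class; bars are exact binomial 95% intervals and the dotted line marks 600 bp. Within 1 kb the share passes from 50.9% in the shortest class to 69.0% at 1000 to 1475 bp, and the interval of the last class, with 7 stretches, runs from 42.1% to 99.6%.

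Neighbours of long stretches were also closer. The median gap to the nearest stretch was 275 bp for long stretches and 700 bp for shorter ones. It fell with length below 600 bp too, from 900 bp for stretches of 200 bp or less to 375 bp for 400 to 575 bp. For stretches of 600 to 775 bp it was 300 bp. Long stretches had a neighbour within 100 bp in 188 cases (32.1%, 28.3 to 36.0), against 21.3% (20.7 to 21.9) of shorter stretches. A gap of 25 bp, the finest step of the list, separated 71 long stretches (12.1%) from their neighbour, and 7.06% of shorter ones. At the far end, 79 long stretches (13.5%, 10.8 to 16.5) had no other stretch within 20 kb, against 21.2% (20.6 to 21.8) of shorter stretches. Crowding followed the same order, with 3 or more other stretches within 5 kb for 188 long stretches (32.1%) and for 22.9% of shorter ones. For 5 or more the shares were 9.39% (7.15 to 12.04) and 7.24% (6.87 to 7.62), and the interval of the difference, 0.0074 to 4.80 points, nearly reached 0.

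**Figure D3:**
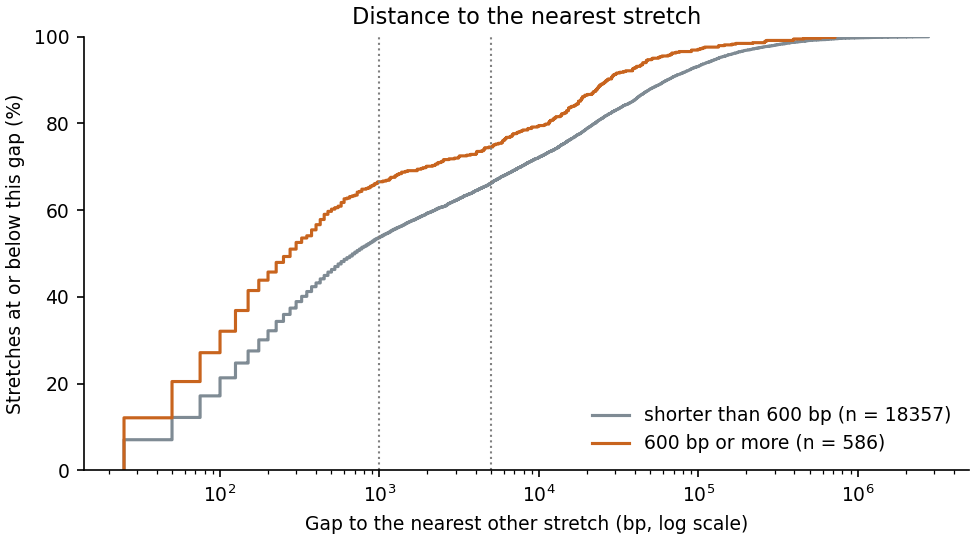
Cumulative percentage of stretches by the gap in bp (log scale) to the nearest other stretch, for 586 long (orange) and 18357 shorter (grey) stretches; dotted lines mark 1 kb and 5 kb. The orange line lies above the grey one, with medians of 275 and 700 bp.

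Long stretches lay near other long ones more often than shorter stretches did. Another long stretch was found within 5 kb of 72 long stretches (12.3%, 9.74 to 15.2), and a long stretch within 5 kb of 5.49% (5.16 to 5.82) of shorter stretches. Within 1 kb the shares were 9.73% (7.45 to 12.4) and 3.34% (3.08 to 3.61). In 24 cases 2 long stretches followed each other within 1 kb. Their gaps ran from 25 to 300 bp with a median of 75 bp, and 15 of the 24 were at most 100 bp, so most of these pairs were separated by no more than a few steps of the 25 bp grid. The nearest neighbour itself was longer beside long stretches. Where it lay within 1 kb, it exceeded 200 bp for 54.9% (49.8 to 59.9) of 390 long stretches and for 44.2% (43.2 to 45.2) of 9887 shorter ones.

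Joining stretches with gaps of up to 5 kb gave 544 groups with a long stretch and 10109 groups without one. Groups with a long stretch held a mean of 3.05 stretches ± 2.25 (SD over groups), against 1.71 ± 1.23. A larger group has more chances to hold a long stretch, so this contrast is partly built in. Counted per stretch, long ones made up 2.35% (1.99 to 2.75) of stretches that were alone in their group and 2.55% (2.11 to 3.04) of those in groups of 2. They made up 3.95% (3.44 to 4.52) in groups of 3 or 4, 4.14% (3.32 to 5.09) in groups of 5 to 7 and 3.92% (2.68 to 5.52) in groups of 8 or more. The share thus stepped up between groups of 2 and of 3 or 4, and the 3 larger size classes overlapped in their intervals. Most groups with a long stretch had only 1: 508 of the 544 held 1, 31 held 2, 4 held 3 and 1 held 4.

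The place of long stretches within a group was counted, but the counts cannot show whether they favour or avoid an end. In the 248 groups of 3 or more stretches with exactly 1 long stretch, the long one was the first or last in 110 (44.4%, 38.1 to 50.8). Of the 854 shorter stretches in the same groups, 386 (45.2%, 41.8 to 48.6) were the first or last. Every group has 1 first and 1 last stretch, so the counts of long and shorter stretches depend on each other. The pooled share of shorter stretches also gives more weight to larger groups, so the shares are not like for like. Strand is unknown, so the first and last stretch cannot be read as the 5′ or 3′ end of a transcript.

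In the 5 groups with the most long stretches, long stretches lay beside short gaps. These groups were chosen for that number, so dense long stretches follow in part from the choice. They are not typical, since 508 of the 544 groups with a long stretch held only 1. The group at chr2:121125001-121138025 spanned 13.0 kb and held 13 stretches, of which 4 were long: 1300, 725, 1525 and 1875 bp. The last 3 of these were divided only by gaps of 75 and 50 bp. Enrichment covered 64.5% of the group, and its last 4 stretches, each of 425 bp or less, were spread more thinly, with gaps of up to 2000 bp. A group at chr10:79773801-79783275 held 11 stretches over 9.47 kb. Its long members of 1650, 775 and 1075 bp followed each other with gaps of 50 and 275 bp, after a stretch of 525 bp that lay 25 bp before the first of them. The 7 stretches after them were shorter, from 150 to 550 bp, and enrichment covered 64.9% of the group.

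The other 3 groups were compact. At chr10:80295701-80298775, 3 of 4 stretches were long (650, 600 and 1125 bp) and 82.1% of 3.08 kb was enriched, the highest coverage of the 5. At chr9:95304001-95307525, the 3 long stretches were each 725 bp, with gaps of 75 and 275 bp, and 74.5% of 3.52 kb was enriched. At chr3:45182326-45186475, stretches of 850, 600 and 625 bp lay 50 and 150 bp apart, and 65.1% of 4.15 kb was enriched. In each of the 5 groups the long stretches followed one another with at most 3 shorter stretches between a pair.

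**Figure D4:**
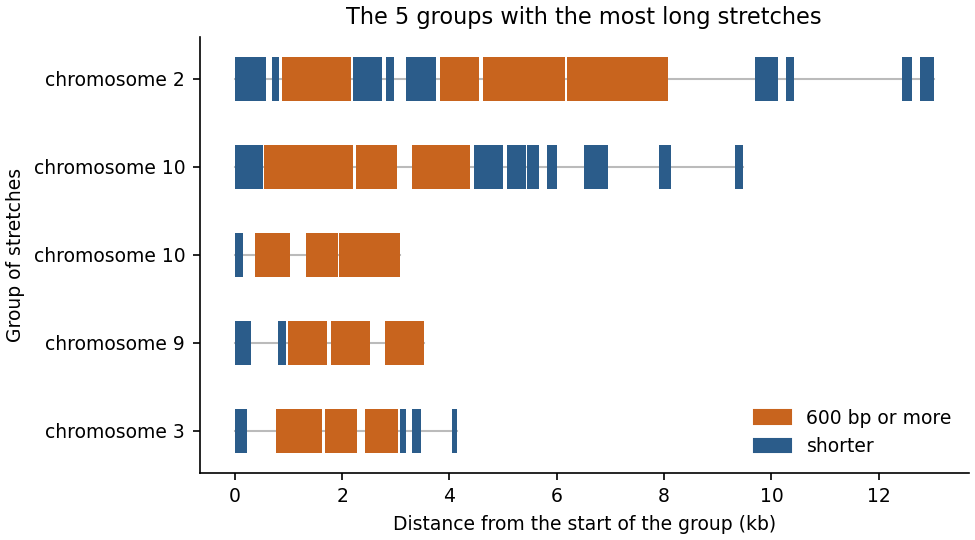
The 5 groups with the most long stretches, each drawn from its own start (distance in kb); orange blocks are long stretches and blue blocks shorter ones. The long blocks sit next to each other except in the top group, where 3 shorter blocks lie between the first of them and the rest, and the last 4 blocks of that group, on chromosome 2, trail off to the right.

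The most crowded long stretches were a different set. A stretch of 900 bp at chr9:108012526-108013425 had 15 others within 5 kb, and one of 800 bp at chr9:108014701-108015500, in the same group, had 13. Stretches of 825 bp at chr15:76006726-76007550 and of 625 bp at chr15:76007851-76008475 had 14 and 13. A stretch of 775 bp at chr5:137731526-137732300 had 12. Each of these lay among mainly short stretches, and 4 of the 5 had 1 other long stretch within 5 kb. The mean number of other stretches within 5 kb was 2.07 ± 2.18 (SD over stretches) for long and 1.59 ± 1.81 for shorter stretches.

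At the opposite extreme, 149 long stretches (25.4%) had no other stretch within 5 kb, as did 6343 of all 18943 stretches. Long stretches were thus alone less often: 74.6% of them had a neighbour within 5 kb, against 66.5% of stretches of any length. The median length of the 149 was 700 bp, against 725 bp for the 437 with a neighbour, and 17 of the 149 reached 1000 bp. The median distance to their nearest stretch was 22.0 kb. The 5 most remote were at chr15:41651401-41652100 (700 bp), at chr13:60862076-60863175 (1100 bp), at chr12:79326801-79327550 (750 bp), at chr2:160190876-160191525 (650 bp) and at chr1:23376476-23377125 (650 bp). Their nearest stretches were 718, 583, 457, 396 and 392 kb away. Long continuous enrichment was therefore also present in regions of the genome with almost no other listed peak.

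Chromosomes differed in how many of their stretches were long. The mean share of a chromosome's stretches that were long was 2.99% ± 0.80 (SD over 19 chromosomes). Chromosome 7 had 66 long stretches among 1376 (4.80%, exact binomial 95% interval 3.73 to 6.06). Chromosome 15 followed with 35 of 813 (4.31%, 3.02 to 5.94). Chromosomes 13 and 14 had the smallest shares, with 11 of 642 (1.71%, 0.86 to 3.05) and 11 of 654 (1.68%, 0.84 to 2.99). The intervals of chromosome 7 and of these 2 chromosomes did not overlap, whereas that of chromosome 15 included the 3.09% of all chromosomes together. These chromosomes were picked out of 19 by their values. Without chromosome 7, long stretches were 2.96% of the rest. With rows up to 100 bp apart joined, an alternative added after the values were seen, long regions made up 8.32% (6.84 to 9.9996) on chromosome 7 and 5.75% (4.02 to 7.95) on chromosome 14, and these intervals overlapped.

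The share of enriched sequence under long stretches was likewise lowest on chromosome 14 (5.91%) and highest on chromosome 7 (16.0%). The number of long stretches for every 100 protein-coding genes, counted in the RefSeq table of GRCm38.p6, was lowest on chromosome 14 (1.29) and highest on chromosome 15 (4.51), with 3.25 on chromosome 7. Every protein-coding gene was counted, whether or not the tissue expresses it. Chromosome 7 had the fewest stretches of any length per 100 genes (67.8) and chromosome 18 the most (133.7). Long stretches were only 2.05% of those on chromosome 18 (1.13 to 3.42). Other chromosomes showed no such contrast: chromosomes 13 and 14, with the smallest shares of long stretches, had 77.4 and 76.9 stretches per 100 genes, and chromosome 15 had 104.8.

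**Figure D5:**
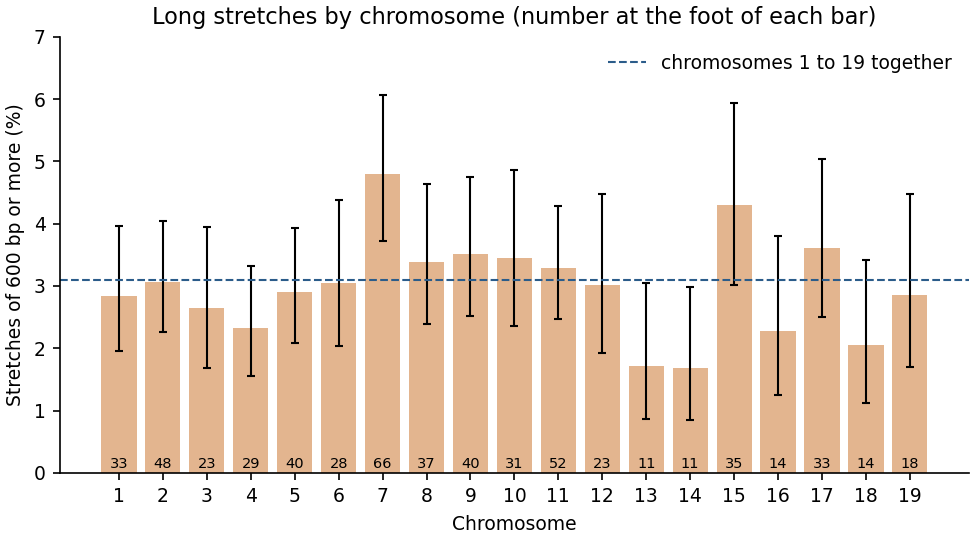
Percentage of each chromosome's stretches that were 600 bp or longer, with exact binomial 95% intervals and the number of long stretches at the foot of each bar; the dashed line is the share over chromosomes 1 to 19 together. The bar of chromosome 7 (4.80%) has its whole interval above the line, and those of chromosomes 13 and 14 have theirs below it.

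The median length of the long stretches was lowest on chromosome 1 (650 bp) and highest on chromosome 13 (950 bp, from 11 stretches). At the scale of 1 Mb, the 586 long stretches fell into 392 windows aligned to multiples of 1 Mb. Of these windows, 270 held 1 long stretch, 78 held 2, 28 held 3 and 16 held 4 or more. The most was 7, in the windows chr10:79000001-80000000, chr10:80000001-81000000 and chr9:108000001-109000000. The number of stretches of any length in these windows is not given here. The counts therefore do not show whether a larger share of the stretches there was long. These 3 windows were chosen after their values were seen. They also hold 2 of the 5 groups with the most long stretches and 2 of the 5 most crowded long stretches.

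How many stretches count as long depended on how small a break was bridged. When rows up to 100 bp apart were joined, 1215 regions reached 600 bp in place of 586. Of these, 569 contained a stretch that was long without bridging, and 646 (53.2%) were made of shorter stretches only. The longest region then lay at chr2:121128201-121133075, with 4875 bp and 3 long stretches inside. Next came regions of 3025 bp at chr10:79773801-79776825 and of 2375 bp at chr10:79777101-79779475. The cause of breaks of this size was not tested.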

How the data were processed

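The list deposited by the authors gives a chromosome, start and end in each row, divides continuous regions into rows of at most 200 bp, and covers 3 MeRIP and 3 input libraries together. The submitters' processing notes name build mm9, SAMtools 0.1.18 and BWA 0.6.2-r126. No source used here names the peak caller, its threshold, the use of the input libraries or the treatment of replicates. The deposited file has coordinates only, so depth and height are unknown.

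Rows were sorted, joined where the gap was 0 bp and kept on chromosomes 1 to 19. Stretches of 600 bp or more are long. Gaps run between nearest ends, and groups join gaps of up to 5 kb. Shares have exact binomial (Clopper-Pearson) 95% intervals and differences have Newcombe intervals. No p-value was computed. The functions were tested on simulated data. Named items were the 20 longest stretches, the 5 groups with the most long stretches, the 5 most crowded and the 5 most remote long stretches. The members, lists and named items were chosen with earlier results of these data known. Gene groups and marker genes listed in the plan were not used, since genes could not be assigned on mm9. Alternatives covered the joining gap, the minimum length, the distance measure, the comparison set and X. Python 3.11.15, numpy 2.4.6, pandas 2.3.3, scipy 1.17.1 and matplotlib 3.10.9 were used.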

Additional observations from a re-analysis of the deposited data

Results flagged for a closer look

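Long stretches also occurred on chromosomes that the comparisons leave out. X held 8 stretches of 600 bp or more among 437 (1.83%, exact binomial 95% interval 0.79 to 3.58), with a longest of 1125 bp. The mitochondrial chromosome held 2 among 6, the longer of 2450 bp. The 18 stretches on unplaced contigs reached at most 425 bp.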

How the results depend on the processing

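The number of long stretches (586) became 1215 with rows up to 100 bp apart joined, 2147 at a minimum of 400 bp and 198 at a minimum of 800 bp. It was 746 with rows up to 25 bp apart joined and 594 with X. The share with a neighbour within 1 kb (66.6%) was 58.02% between midpoints, 61.3% and 48.9% with rows up to 25 and 100 bp apart joined, 62.5% at a minimum of 400 bp and 54.8% for neighbours more than 100 bp away. The last setting was chosen after seeing the data. Shorter stretches had 43.8% under it, a difference of 11.0 points (95% interval 6.87 to 15.0). The share within 5 kb (74.6%) was 62.9% with rows up to 100 bp apart joined. The difference from shorter stretches within 1 kb (12.7 points) was 6.73 between midpoints, where a stretch's own length adds to each distance, and 6.96 with rows up to 100 bp apart joined, an alternative added after seeing the data. Joining removes the nearest neighbours by construction. After joining within 100 bp, chosen after seeing the data, long regions were 8.32% on chromosome 7 and 5.75% on chromosome 14. Of 26 alternatives, 13 stayed within 1.5 times the count or within the 95% interval of the value reported, and each of the 8 alternative differences was above 0. No paired analysis was possible because all 6 libraries share a single list, which also prevented leaving out a replicate. The alternative for exon types was not run, since no mm9 annotation was used. Depth and transcript level cannot be read from the list.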
